A study of Homo sapiens with 10 samples.

Results

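NEUROD1, INSM1, NEUROG2, NEUROG3, ATOH1 and ASCL2 are genes of neural and endocrine cell fate, and their acetylation was read from ChIP-Seq peak lists of a prostate cancer cell line and its drug-resistant derivative. All peaks of the 4 lists that lay over each gene body or within 100 kb to either side were taken. The set holds 6 of 20033 protein-coding genes, and 253 of 537404 peaks lay over these loci. Of these, 35 H3K27ac peaks and 86 H3K18ac peaks were found in C4-2BER, and 40 and 92 in C4-2B.

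C4-2B is a human prostate adenocarcinoma cell line. C4-2BER was derived from it by continuous exposure to enzalutamide, a drug given against prostate cancer, in which it is kept, and it is described as neuroendocrine-like. Both acetylation marks, H3K27ac and H3K18ac, were mapped with 2 ChIP libraries per mark in either cell line, each cell line having 1 input library. Since the replicates were merged before the peaks were called, each value below stands for 1 pool, has no replicate error and allows no test, and each condition is 1 cell line. The drug and the cell line changed together, so their effects cannot be told apart.

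Acetylation of lysine 27 or lysine 18 of histone H3 is found at active promoters and enhancers. Proneural bHLH factors bind E-box DNA as dimers with E proteins and start neuronal or secretory differentiation, whereas ID proteins and several HES proteins oppose them. NEUROG2, NEUROG3 and ATOH1 act early in this sequence, NEUROD1 acts later in neurons and endocrine cells, and INSM1 is a zinc-finger repressor that is widely used as a marker of neuroendocrine tumours. ASCL2 belongs to the achaete-scute family but is best known from trophoblast and intestinal stem cells.

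Of the H3K27ac peaks away from the gene starts, 3 are shown as sequence because they are the highest peak or the nearest peak of their loci beyond the promoter. Each is the middle, at most 300 bases, of the stretch common to the peaks named with it. The letters are the hg38 forward strand, with every E-box (CANNTG, the same on both strands) in capitals, and overlapping matches run together. The NEUROD1 element 65 kb upstream is chr2:181745007-181745306, cut from the C4-2BER peaks of both marks. The H3K18ac peak of C4-2B also covered this element, and the H3K27ac peak of C4-2B did not. The NEUROG2 element is chr4:112523993-112524292 and the INSM1 element chr20:20457774-20458029, each with a peak in all 4 lists. None of the 3 overlapped an annotated exon.
NEUROD1 65 kb upstream: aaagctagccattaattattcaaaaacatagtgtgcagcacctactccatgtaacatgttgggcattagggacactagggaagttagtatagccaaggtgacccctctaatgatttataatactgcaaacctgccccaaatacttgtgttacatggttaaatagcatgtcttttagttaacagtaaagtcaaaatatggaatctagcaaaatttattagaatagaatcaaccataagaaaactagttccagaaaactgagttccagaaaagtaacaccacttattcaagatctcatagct
NEUROG2 8 kb upstream: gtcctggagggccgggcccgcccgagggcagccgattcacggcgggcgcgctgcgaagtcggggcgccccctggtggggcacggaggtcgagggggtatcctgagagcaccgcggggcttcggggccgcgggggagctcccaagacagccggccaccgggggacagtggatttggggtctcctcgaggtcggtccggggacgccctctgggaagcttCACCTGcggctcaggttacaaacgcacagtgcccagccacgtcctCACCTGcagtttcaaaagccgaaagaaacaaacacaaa
INSM1 90 kb downstream: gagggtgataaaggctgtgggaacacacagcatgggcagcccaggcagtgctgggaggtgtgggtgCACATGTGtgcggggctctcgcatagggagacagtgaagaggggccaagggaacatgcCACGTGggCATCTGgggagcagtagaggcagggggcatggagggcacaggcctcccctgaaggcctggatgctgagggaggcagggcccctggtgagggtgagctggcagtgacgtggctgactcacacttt

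The H3K27ac regions differed in how far their letters are unique in the genome. When every 32-base word in the middle 300 bases of a region was counted on both strands of hg38, the 3 elements above held words that occur once. A region 95 kb upstream of NEUROD1, with peaks in C4-2BER only, had 90.5% of its words more than once, with a median of 297.5 copies. One 42 kb downstream of ATOH1, with peaks in C4-2B only, had 95.9% repeated, with a median of 444 copies. Several regions described below were partly repeated, such as those 97 kb upstream of NEUROD1 (30.5%), 103 kb downstream of NEUROG2 (45.4%), 56 kb upstream of ASCL2 (32.3%) and 69 kb downstream of ASCL2 (40.1%). The authors' filter on mapping quality removes many of the reads that fit several copies equally well, and the part of repeats in the peaks was not tested. Among the 46 H3K27ac regions of the 6 loci, 2 had mostly repeated words in their middle (4.35%), and both of these were found in 1 cell line only. In a systematic sample of every 50th H3K27ac region of the genome, the share was 15.7%. For H3K18ac it was 12.3% of the 106 regions of the 6 loci, against 23.1% in a sample of every 150th region.

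The elements differed in their number of E-boxes. The NEUROG2 element held 2 CANNTG matches, both of them CACCTG. The INSM1 element held 4, of which 1 was CATCTG, the reverse complement of CAGATG. The NEUROD1 element had 0, but unlike the others it was cut from the C4-2BER peaks alone. At that site, the middle 300 bases of the stretch common to all 4 lists held 2. Over the central 300 bases of all H3K27ac regions, 79.7% held at least 1 CANNTG, with a median of 1 match, and 17.9% held CAGATG on either strand. The GC content was 35.0% in the NEUROD1 element 65 kb upstream and 68.3% in the NEUROG2 element, against a median of 52.0% over all H3K27ac regions. In the NEUROD1 stretch common to all 4 lists it was 49.0%.

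For 4 of the 6 genes RefSeq (GRCh38.p14) promoter windows were given. Shown are the 250 bases before the start of NEUROG2 (chr4:112516181-112516430, minus strand), NEUROG3 (chr10:69573423-69573672, minus strand) and ATOH1 (chr4:93828503-93828752, plus strand). The NEUROG2 promoter had a weak H3K27ac peak in C4-2BER only, which lay downstream of the start and outside the bases shown. The promoters of NEUROG3 and ATOH1 carried H3K18ac without H3K27ac. The bases are written in the direction of transcription, again with E-boxes in capitals.
NEUROG2 promoter: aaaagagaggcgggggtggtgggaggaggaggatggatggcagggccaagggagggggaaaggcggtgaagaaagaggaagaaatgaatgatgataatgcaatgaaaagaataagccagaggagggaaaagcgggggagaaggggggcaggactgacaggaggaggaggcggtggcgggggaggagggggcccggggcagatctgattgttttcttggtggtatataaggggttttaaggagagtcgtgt
NEUROG3 promoter: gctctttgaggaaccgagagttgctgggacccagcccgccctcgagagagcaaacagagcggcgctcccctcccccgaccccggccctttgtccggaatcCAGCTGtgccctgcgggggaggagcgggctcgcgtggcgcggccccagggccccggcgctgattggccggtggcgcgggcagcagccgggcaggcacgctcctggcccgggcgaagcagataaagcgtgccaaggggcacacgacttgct
ATOH1 promoter: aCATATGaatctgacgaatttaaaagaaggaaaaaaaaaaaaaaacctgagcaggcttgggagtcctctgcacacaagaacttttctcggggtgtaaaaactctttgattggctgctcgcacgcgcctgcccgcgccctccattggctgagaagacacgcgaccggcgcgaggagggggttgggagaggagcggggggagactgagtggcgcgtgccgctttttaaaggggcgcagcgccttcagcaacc
The NEUROG2 window held 0 CANNTG matches. The NEUROG3 window held 1, CAGCTG, and the ATOH1 window held 1, CATATG. Of 35116 RefSeq promoter windows of this length, 61.8% held CANNTG, 14.0% CAGCTG and 2.63% CATATG.

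H3K27ac was nearly absent from the promoters of the set, whereas H3K18ac was present at most of them. The promoter window reached from 2000 bp before to 500 bp behind every annotated transcription start site, and its value is the highest fold enrichment of an overlapping peak, which is the ratio of ChIP signal to local background that the peak caller gives. In C4-2BER 2 of 6 genes, NEUROG2 and ASCL2, had an H3K27ac promoter peak, against 74.2% of all protein-coding genes. In C4-2B only ASCL2 had one, 1 of 6, against 73.8%. H3K18ac marked 5 of 6 promoters in C4-2BER and 6 of 6 in C4-2B, beside 85.2% and 87.2% of all genes. The mark may also be present below the threshold of the peak caller where no peak was called, and in cell pools a mark in few cells and a weak mark in all cells cannot be told apart.

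**Figure D1:**
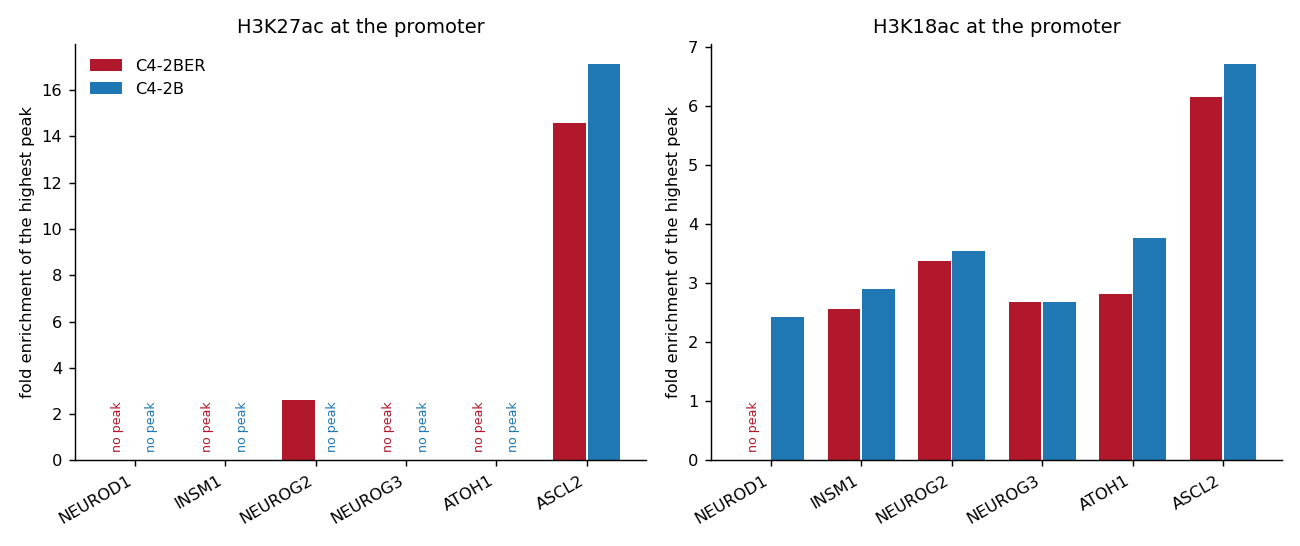
Fold enrichment of the highest promoter peak (y axis, linear, different scale for each mark) of the 6 genes in C4-2BER (red) and C4-2B (blue). Each bar is 1 pooled list with no error bar, and "no peak" marks promoters without one. ASCL2 stands above all others in both marks, and NEUROG2 has its only H3K27ac bar in C4-2BER.

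Among all peaks as deposited, promoters with H3K18ac and no H3K27ac were frequent in the set, but this rested on weak peaks. In C4-2B 5 of 6 genes were in this state (all except ASCL2), against 13.6% of all genes. In C4-2BER it held for INSM1, NEUROG3 and ATOH1, 3 of 6, against 11.3%. With peaks of at least 4-fold enrichment alone it held for 0 of 6 in either cell line (2.53% of all genes in C4-2BER, 3.87% in C4-2B), since ASCL2 alone kept an H3K18ac promoter peak. With a minimum −log10 q-value of 5 it held for 1 of 6 in each (4.86% and 5.51%). The H3K18ac promoter peaks of the genes other than ASCL2 were low, from 2.43 (NEUROD1) to 3.76 (ATOH1) in C4-2B and from 2.56 (INSM1) to 3.37 (NEUROG2) in C4-2BER. The strongest of these, ATOH1 in C4-2B, exceeded 19.7% of the promoters that had an H3K18ac peak in that cell line, and NEUROG2 in C4-2BER exceeded 17.1%. A promoter peak in 1 cell line only was seen once per mark. It was NEUROG2 for H3K27ac in C4-2BER, where 2.82% of all genes had such a peak, with 0 genes of the set in C4-2B, where 2.39% had one. For H3K18ac it was NEUROD1 in C4-2B, where 3.83% of all genes had one, with 0 of the set in C4-2BER, where 1.79% had one.

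NEUROG2, a neurogenin of cortical and sensory neuron progenitors, was the only gene of the set whose promoter had H3K27ac in C4-2BER alone. The gene lies at chr4:112513516-112516180 on the minus strand and has 2 exons. In C4-2BER an H3K27ac peak of 912 bp ran from 144 to 1055 bp downstream of the start, with a fold enrichment of 2.62 and a −log10 q-value of 2.71, and C4-2B had none. This peak was weak, with 32.0% of the peaks in its list below it, and it was lost with a fold enrichment of at least 4 or a −log10 q-value of at least 5. H3K18ac covered the start in both cell lines, with 3.37 over 2690 bp in C4-2BER compared with 3.54 over 2594 bp in C4-2B. The H3K18ac log2 ratio of C4-2BER to C4-2B was −0.07, which turned to 0.0615 when the lists were rescaled to each other. Both peaks also lay over the promoter of the antisense lncRNA NEUROG2-AS1.

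The strongest H3K27ac of the NEUROG2 locus lay 8 kb upstream and was alike in both cell lines. The intergenic region chr4:112523953-112524351 reached a fold enrichment of 4.57 in C4-2BER against 4.79 in C4-2B, and H3K18ac there was 4.07 and 4.45. An H3K27ac peak in intron 5 of ALPK1, 102472 bp downstream, was found in C4-2BER only, at 2.83. H3K18ac at that site was present in both, at 3.77 in C4-2BER compared with 2.19 in C4-2B, which gave the highest H3K18ac log2 ratio among the shared regions of the 6 loci (0.79). Of the 32-base words in the middle of that H3K18ac region, 41.3% were repeated. In all, H3K27ac covered 0.731% of the locus in C4-2BER against 0.176% in C4-2B, where the medians were 7.93% and 6.27% over the loci of all protein-coding genes.

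NEUROG3, the neurogenin of pancreatic and intestinal endocrine progenitors, had H3K18ac at its start and no H3K27ac within 56 kb. The gene lies at chr10:69571698-69573422 on the minus strand. Its H3K18ac promoter peak had a fold enrichment of 2.67 over 1256 bp in C4-2BER compared with 2.68 over 2541 bp in C4-2B, a log2 ratio of −0.00173 (0.0983 after rescaling). The values were thus close to equal while the peak of C4-2B was wider. The nearest H3K27ac peak lay 56147 bp upstream in C4-2BER and 56372 bp in C4-2B, at the promoter of FAM241B, where it reached 12.9 and 17.6.

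The H3K27ac of the NEUROG3 locus lay at its neighbouring genes and in the intergenic sequence beyond 56 kb. It covered 19.1% of the locus in C4-2BER against 11.6% in C4-2B, which was more than in 75.0% and 67.5% of all gene loci. Downstream, over the exons and introns of the tetraspanin gene TSPAN15, C4-2BER had a peak of 15123 bp at 4.78, and C4-2B had 3 separate peaks in the same region with a mean of 3.27 weighted by their length. A further peak of 7597 bp within TSPAN15 was found in C4-2BER only, at 2.75. Of the 15 H3K27ac regions of the locus, 8 were shared, 3 belonged to C4-2BER alone and 4 to C4-2B alone (29.1% and 20.3% over the genome). Of the 8 shared regions 2 had the higher value in C4-2BER, against 36.2% of all shared regions.

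ATOH1, the factor of inner ear hair cells, cerebellar granule cells and gut secretory cells, had no H3K27ac peak in its C4-2BER locus at all. The gene is a single exon at chr4:93828753-93830964 on the plus strand. The nearest H3K27ac peak of C4-2BER lay 186510 bp from its start, and 98.0% of protein-coding genes had a nearer one. In C4-2B there was 1 peak, about 42 kb downstream, with a fold enrichment of 2.84. H3K18ac had a peak there as well, at 3.64, and again in C4-2B only. It was the only region of the 6 loci with a peak in C4-2B alone in both marks (background 4.43% of H3K27ac regions), and it is the region of mostly repeated words described above.

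At the ATOH1 promoter H3K18ac was lower in C4-2BER. The peak had a fold enrichment of 2.81 over 2384 bp in C4-2BER compared with 3.76 over 2166 bp in C4-2B, and the log2 ratio of −0.42 was the largest H3K18ac promoter difference of the set. The median log2 ratio was −0.332 over all genes with H3K18ac promoter peaks in both cell lines, and −0.123 over all shared H3K18ac regions. The ATOH1 ratio was −0.292 when the lists were rescaled to each other. Of the 10 H3K18ac regions of the locus, 6 were in C4-2B only, 2 in C4-2BER only and 2 in both. Over the genome 23.3% were in C4-2B only and 26.1% in C4-2BER only.

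ASCL2 had the highest promoter values of the set, but they were middling beside other genes with promoter peaks. Over genes with a peak in each cell line, the C4-2BER medians were 12.5 (H3K27ac) and 5.67 (H3K18ac), both below ASCL2. The C4-2B medians, 18.2 and 7.12, were both above ASCL2. The gene lies at chr11:2268498-2270588 on the minus strand, with 2 exons. The H3K27ac promoter peak had a fold enrichment of 14.6 over 4913 bp in C4-2BER against 17.1 over 3326 bp in C4-2B, which is above 67.2% and 45.6% of the promoters with a peak. The log2 ratio of the highest peaks was −0.23, against a median of −0.505 over all genes with both peaks. When the values of all peaks in the region were averaged by length, the log2 ratio was 0.17, because C4-2B had a further peak of 2.23 upstream. H3K18ac at the start was 6.15 in C4-2BER compared with 6.71 in C4-2B, a log2 ratio of −0.13. Rescaling the lists to each other turned both promoter ratios positive, to 0.186 for H3K27ac and 0.0903 for H3K18ac.

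The ASCL2 locus was densely acetylated and had both higher and lower regions. H3K27ac covered 18.2% of it in C4-2BER against 20.9% in C4-2B, and H3K18ac 48.1% and 55.5%, the latter above 95.5% and 93.5% of all gene loci. A broad intergenic domain from 4563 to 15935 bp downstream had 9.85 over 11373 bp in C4-2BER compared with 13.7 over 10789 bp in C4-2B. A second domain, from 65054 to 73204 bp downstream, held 1 peak of 10.2 in C4-2BER, while C4-2B had peaks of 18.7 and 2.80 there.

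On the other side, an intergenic region of 2642 bp between −56904 and −54263 bp had 7.48 in C4-2BER against 4.03 in C4-2B. Its H3K27ac log2 ratio of 0.89 was the highest among the shared regions of the 6 loci, and H3K18ac there was 4.98 and 4.11. The next highest, 0.79, was also at ASCL2, 59383 bp downstream, with 5.77 in C4-2BER compared with 3.33 in C4-2B. Of 20 H3K27ac regions of the locus, 2 belonged to C4-2BER alone and 6 to C4-2B alone (29.1% and 20.3% over the genome). The other 12 were shared, of which 4 were higher in C4-2BER, against 36.2% of all shared regions. Peaks near the neighbouring genes C11orf21 and TSPAN32 were weak in both cell lines, at 2.54 and 3.09 at their shared promoter.

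NEUROD1, a factor of late neuronal and endocrine differentiation, had no H3K27ac at its promoter in either cell line but a group of upstream peaks that was larger in C4-2BER. The gene lies at chr2:181668295-181680827 on the minus strand, with the start of its canonical transcript at 181680517. In C4-2B a weak H3K18ac peak of 2.43 lay between −2200 and −1057 bp, with 22.8% of the list below it, and C4-2BER had none. That peak fell in a promoter window of CERKL as well, a gene with an annotated start next to that of NEUROD1. The nearest H3K18ac peak of C4-2BER was 7603 bp away.

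**Figure D2:**
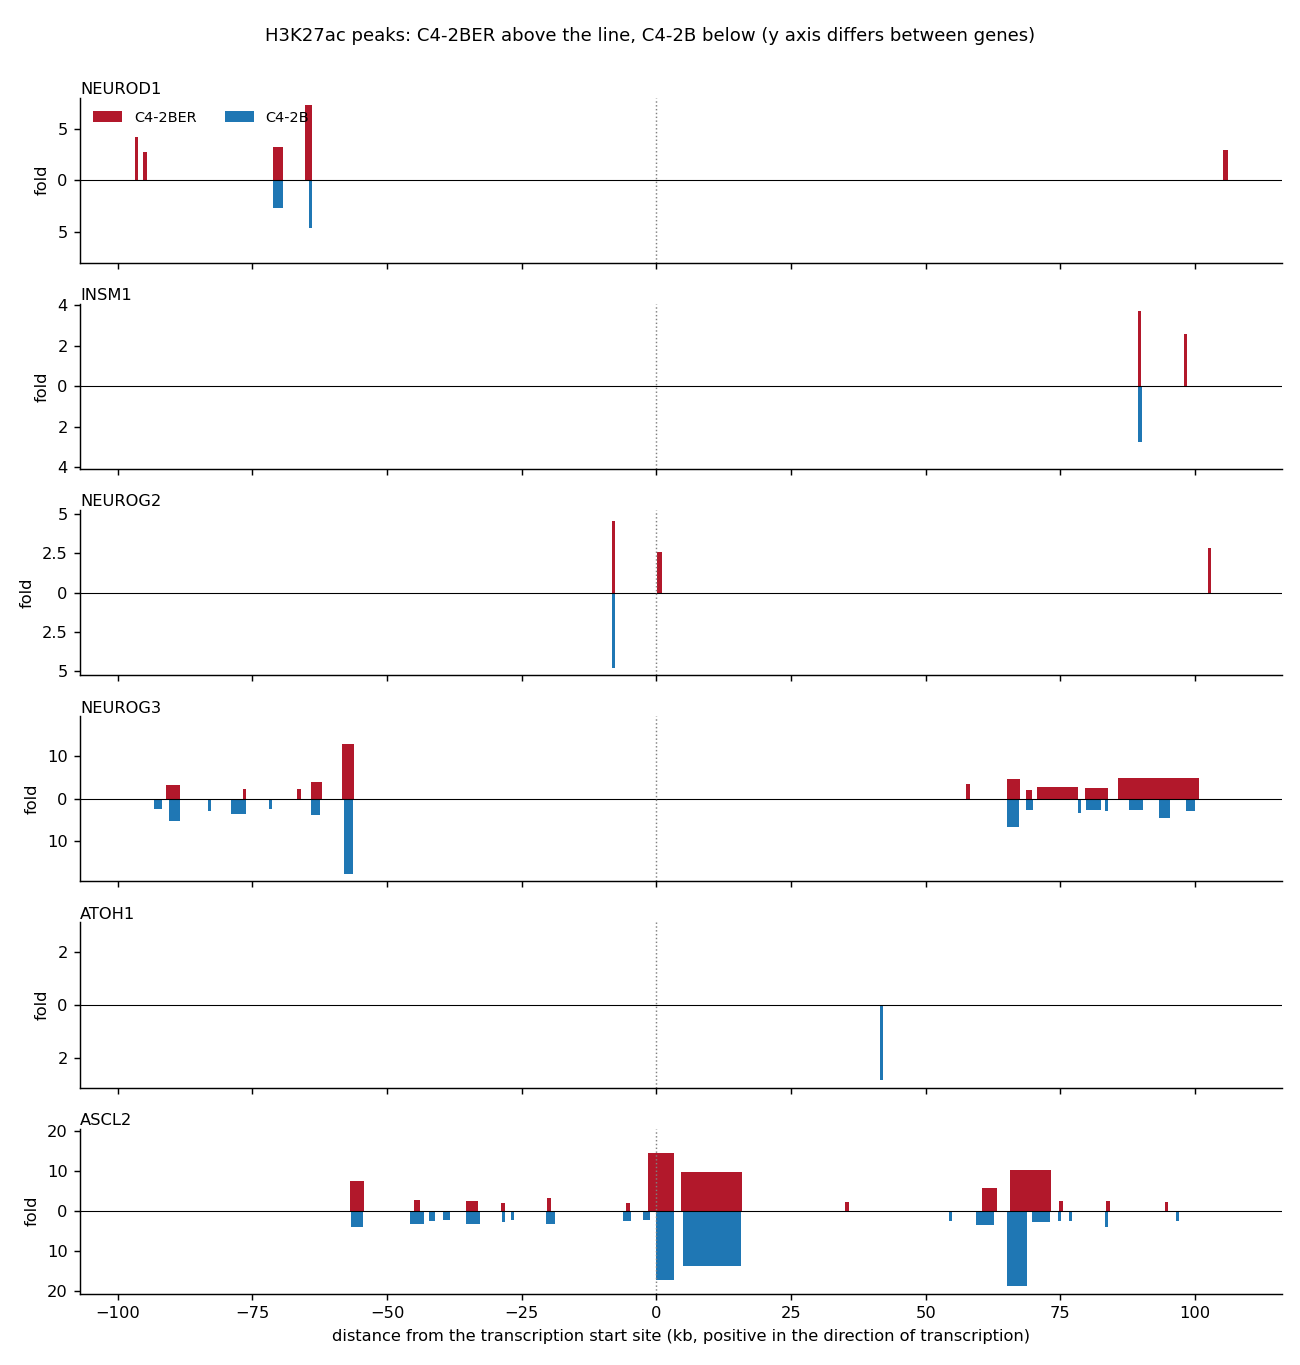
H3K27ac peaks over the 6 loci by distance from the transcription start site in kb (x axis, positive in the direction of transcription, peaks narrower than 0.6 kb drawn 0.6 kb wide). Bar height is the fold enrichment, C4-2BER upward in red and C4-2B downward in blue, with a y axis of its own for each gene. NEUROD1, INSM1, NEUROG2 and ATOH1 have few peaks, and only NEUROG2 and ASCL2 have one at the dotted start site.

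The highest H3K27ac peak of the NEUROD1 locus was intergenic, about 64 kb upstream, and differed in height and in width. The C4-2BER peak, chr2:181744431-181745807, had a fold enrichment of 7.29 over 1377 bp and a −log10 q-value of 45.4. That of C4-2B had 4.65 over 418 bp and a −log10 q-value of 9.65, and the log2 ratio was 0.65. H3K18ac was higher in C4-2BER at this place too, with 4.63 and 3.41. The C4-2BER peak reached over unique sequence, the element printed above, which the H3K27ac peak of C4-2B did not include. The H3K18ac peak of C4-2B did include it. In the middle of the stretch common to all 4 lists, 78.4% of the 32-base words were repeated in the genome.

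Other NEUROD1 peaks lay at the same side. At −71249 to −69328 bp H3K27ac was 3.18 in C4-2BER against 2.73 in C4-2B, and H3K18ac 4.25 and 3.85. The regions 97 and 95 kb upstream had H3K27ac of 4.22 and 2.71 and H3K18ac of 4.08 and 3.95, all in C4-2BER and none in C4-2B. They were the only 2 regions of the 6 loci with a peak in C4-2BER alone in both marks, 2 of 46 (background 7.77% of H3K27ac regions), and the second is the region of mostly repeated words. A peak in intron 2 of CERKL, 105151 bp downstream, was found for H3K27ac in C4-2BER only, at 2.90, with H3K18ac of 3.95 and 3.20. The locus had 5 H3K27ac peaks over 2.30% of its length in C4-2BER and 2 over 1.04% in C4-2B, which was still less than in most gene loci, since 21.9% of them had less in C4-2BER.

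For H3K18ac the NEUROD1 locus had 19 regions, of which C4-2BER alone had 9, C4-2B alone had 4, and 6 were shared. Over the genome 26.1% of H3K18ac regions were in C4-2BER alone and 23.3% in C4-2B alone. Of the 6 shared regions 5 were higher in C4-2BER, against 32.6% of all shared regions. The exception, 51208 bp upstream, had 2.30 in C4-2BER compared with 3.83 in C4-2B. Its log2 ratio of −0.73 was the lowest H3K18ac value among the shared regions of the 6 loci, and 42.4% of the 32-base words in its middle were repeated. Some of the higher shared regions were repeated as well. The share was 80.7% in the region 8 kb upstream (log2 ratio 0.21) and 51.3% in that 32 kb upstream (0.01).

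INSM1 had H3K18ac over its single exon and no H3K27ac within 89 kb. The gene lies at chr20:20368104-20370949 on the plus strand. The H3K18ac promoter peak had a fold enrichment of 2.56 over 2386 bp in C4-2BER against 2.91 over 3219 bp in C4-2B, a log2 ratio of −0.18. That ratio was −0.0782 after rescaling and 0.00494 with promoter windows of 5000 bp on both sides. A further H3K18ac peak upstream had 3.37 over 1184 bp in C4-2BER compared with 3.35 over 2622 bp in C4-2B, and both peaks were thus wider in C4-2B. The nearest H3K27ac peak was 89482 bp downstream in intron 37 of RALGAPA2, a gene of a Ral GTPase-activating complex, at 3.71 over 510 bp in C4-2BER against 2.75 over 256 bp in C4-2B. The log2 ratio was 0.43, and H3K18ac there was 3.80 and 3.16. In the same intron, 97871 bp downstream, H3K27ac of 2.57 was found in C4-2BER only, while H3K18ac was in both, at 3.23 and 2.96.

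The wider INSM1 locus held mainly weak H3K18ac. Of its 22 H3K18ac regions, 8 were shared, C4-2BER alone had 6 and C4-2B alone had 8 (26.1% and 23.3% over the genome). Their fold enrichments ran from 2.01 to 3.80 in C4-2BER. Of the 14 H3K18ac peaks of C4-2BER, 2 overlapped an H3K27ac peak (14.3%, against 33.4% of the whole list), and of the 17 of C4-2B, 1 did (5.88%, against 30.8%). The base composition of the INSM1 promoter was unusual for the set: its window had 63.6% GC and a CpG observed-to-expected ratio of 0.906, higher than 99.1% of protein-coding genes, beside medians of 52.4% and 0.566. ASCL2 had 67.8% and 0.734, and NEUROD1 and ATOH1 lay near the medians for GC, at 51.3% and 52.0%.

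**Figure D3:**
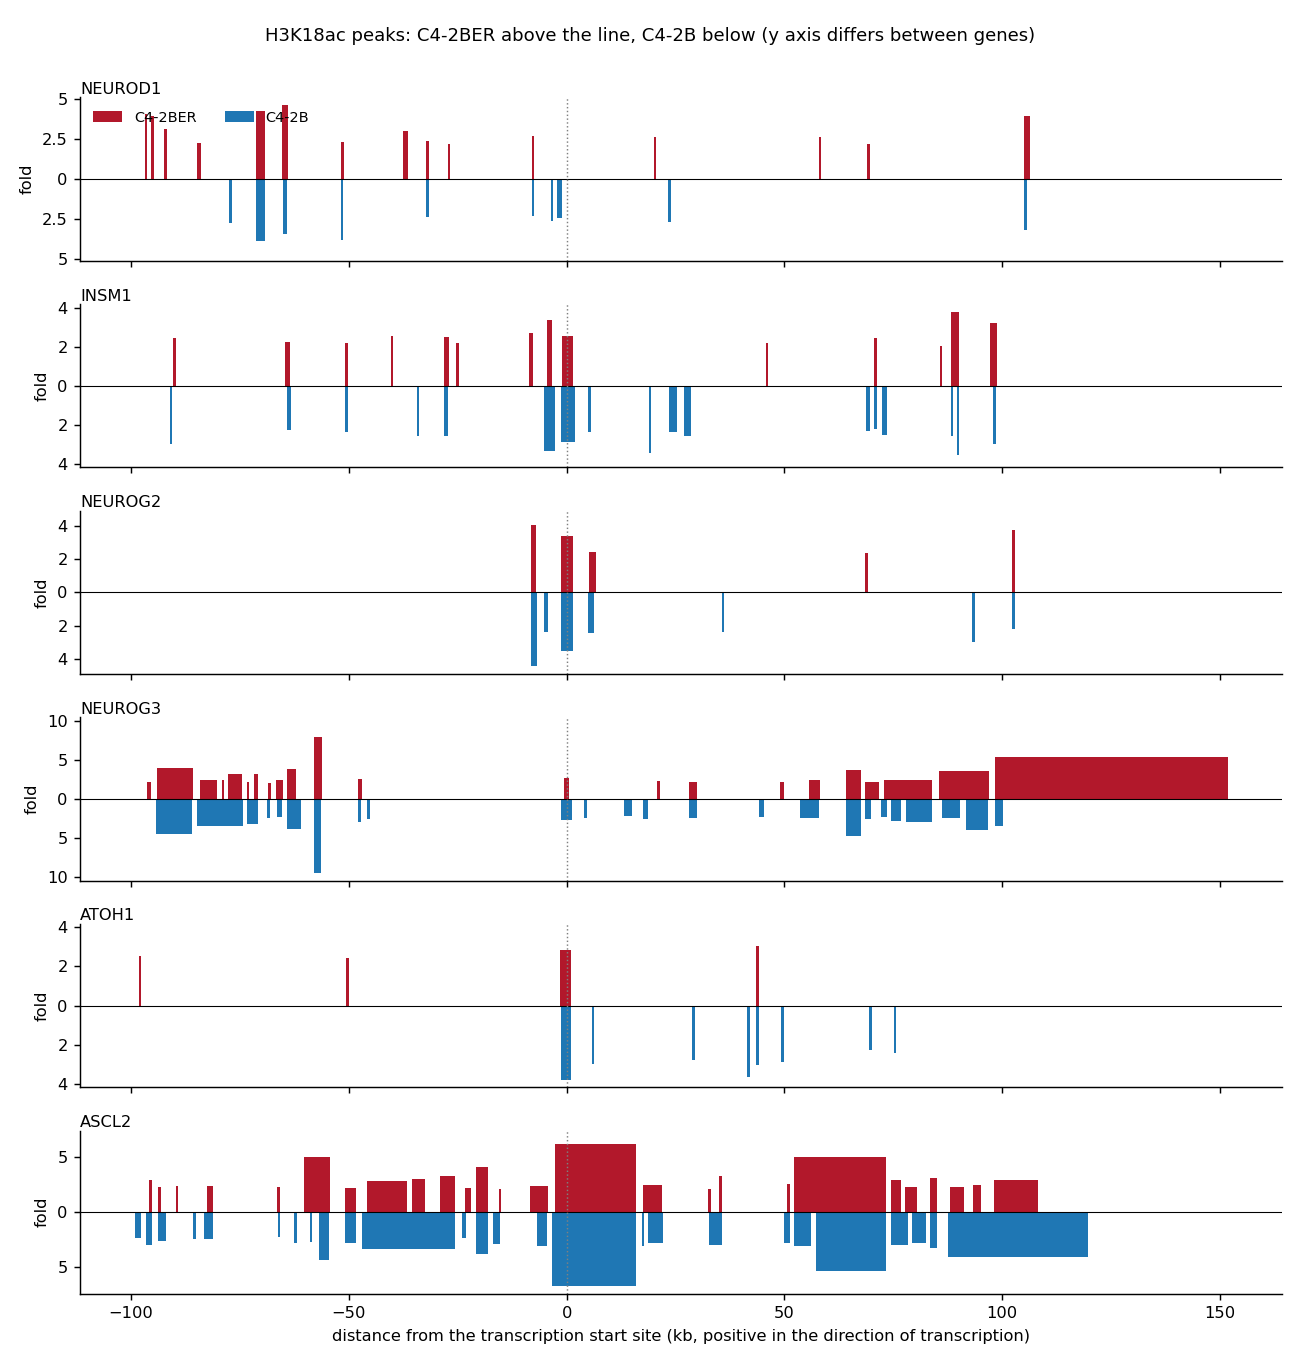
H3K18ac peaks over the same loci, drawn in the same way. Peaks lie at or near the start site of each gene in both cell lines except at NEUROD1, where the promoter peak is in C4-2B only. Most bars are below 4 in every locus, and the highest bars are in the NEUROG3 and ASCL2 loci.

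Over all 6 loci, as many H3K27ac regions were found in C4-2BER alone as in C4-2B alone. Overlapping peaks of the cell lines were joined into 46 H3K27ac regions, of which 24 were shared. C4-2BER alone had 11 and C4-2B alone had 11, or 23.9% each, against 29.1% and 20.3% of all H3K27ac regions of the genome. Of the 11 regions of C4-2B alone, 10 lay in the loci of ASCL2 and NEUROG3. In the other 4 loci there were 11 H3K27ac regions, 4 of them shared, 6 in C4-2BER alone and 1 in C4-2B alone. Leaving out ASCL2 and NEUROG3 takes away most regions of C4-2B alone, so this contrast follows from the choice of loci. Within 50 kb of the 6 genes, C4-2BER alone had 2 H3K27ac regions and C4-2B alone had 4.

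For H3K18ac there were 106 regions, 22 in C4-2BER only (20.8%, background 26.1%), 29 in C4-2B only (27.4%, background 23.3%) and 55 in both. In the loci other than ASCL2 and NEUROG3 the counts were 18, 21 and 20 of 59. All 46 H3K27ac regions overlapped an H3K18ac region, as did 94.5% of those of the genome. Regions that only 1 cell line had were weak, with medians of 2.71 (C4-2BER) and 2.41 (C4-2B) for H3K27ac and 2.41 and 2.54 for H3K18ac, near the genome medians of 2.52, 2.59, 2.40 and 2.51. Stricter minimums left fewer regions and changed the order for H3K18ac. With a fold enrichment of at least 4, C4-2BER alone had 3 and C4-2B alone 1 of 13 H3K27ac regions (19.3% and 15.7% over the genome at this minimum), and 4 and 2 of 13 H3K18ac regions (19.0% and 23.6%). With a minimum −log10 q-value of 5, C4-2BER alone had 5 and C4-2B alone 2 of 19 H3K27ac regions (27.4% and 11.4%), and 11 and 4 of 30 H3K18ac regions (34.2% and 12.2%).

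No shared region of the loci differed by a factor of 2. Of 24 shared H3K27ac regions, 0 were at least 2 times higher in C4-2BER and 0 at least 2 times lower, while 2.64% and 4.67% of all shared regions were. For H3K18ac it was 0 of 55 in either direction, against 0.231% and 0.461%. The median log2 ratio of the shared regions was −0.09 for H3K27ac and −0.07 for H3K18ac, beside −0.17 and −0.12 over the genome. The first became −0.231 with a fold enrichment of at least 4, and the second turned to 0.0527 when the lists were rescaled to each other. The value was higher in C4-2BER at 37.5% and 38.2% of them, beside 36.2% and 32.6% of all shared regions. Fold enrichments are scaled to the background of each list, so a common shift between the lists is part of these ratios.

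**Figure D4:**
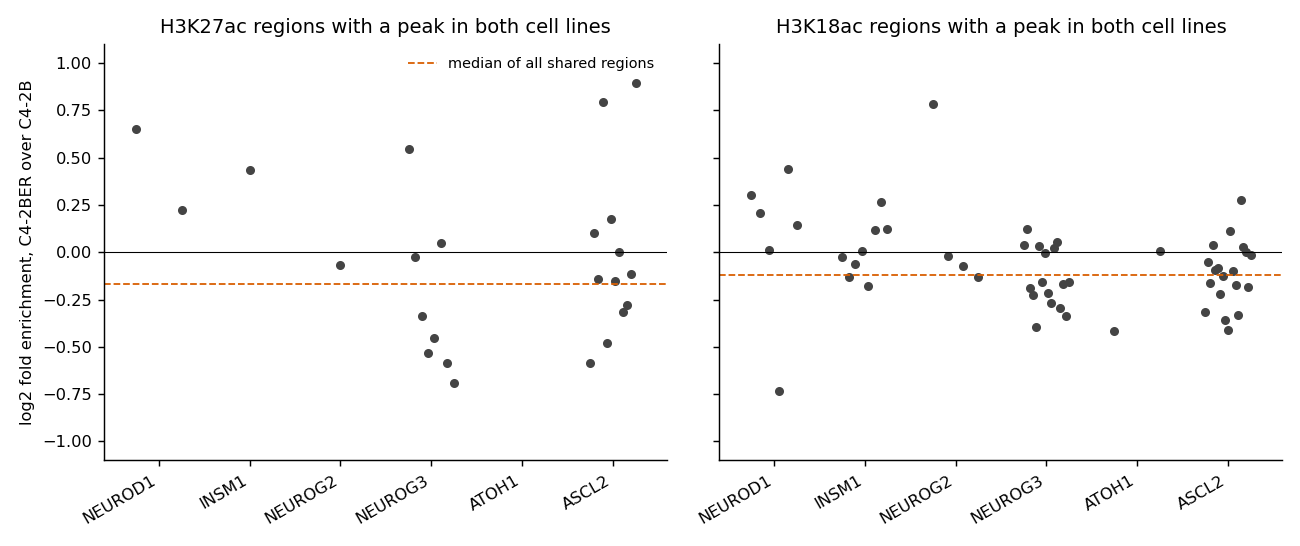
Log2 ratio of fold enrichment, C4-2BER over C4-2B (y axis), of each region with a peak in both cell lines, by gene locus in order of position (1 point a region, no error as the replicates were pooled). The dashed line is the median of all shared regions of the genome, −0.17 for H3K27ac and −0.12 for H3K18ac, and all points lie between −1 and 1.

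In the share of their surroundings under peaks the 6 loci fell into a sparse and a dense group. H3K27ac covered between 0% (ATOH1) and 2.30% (NEUROD1) of 4 loci in C4-2BER and between 0.126% (INSM1) and 1.04% (NEUROD1) in C4-2B. NEUROD1, INSM1 and NEUROG2 had more H3K27ac coverage in C4-2BER, and ATOH1 had less. H3K18ac covered 1.69% to 7.00% of the same loci in C4-2BER and 2.37% to 8.15% in C4-2B, and of these loci only NEUROD1 had more of it in C4-2BER (4.88% and 3.29%). The C4-2BER lists covered more of the genome as a whole, with 144.8 Mb and 117.1 Mb for H3K27ac and 320.7 Mb and 293.2 Mb for H3K18ac.

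**Figure D5:**
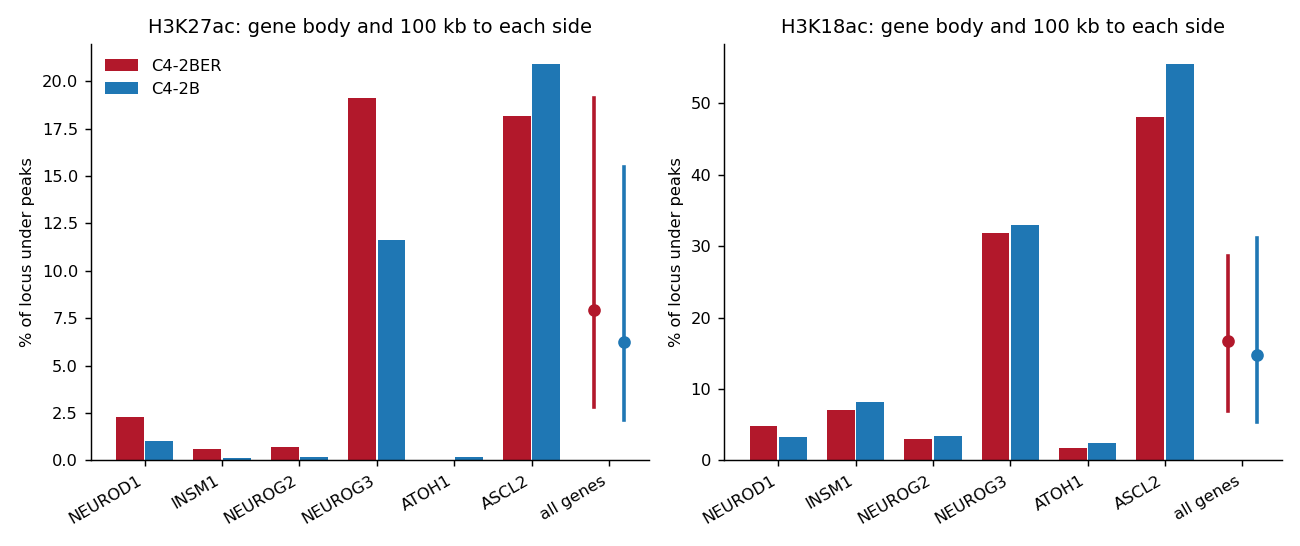
Share of each locus (gene body and 100 kb to either side) under peaks, in % (y axis), in C4-2BER (red bars) and C4-2B (blue bars). Points and vertical lines at the right are the median and the quartiles over the loci of all 20033 protein-coding genes. NEUROG3 and ASCL2 are above both medians in both marks, and the other 4 genes are below them.

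The wider pathway was compared at its promoters. Among 18 other proneural and neuronal bHLH genes with INSM2, 8 had an H3K27ac promoter peak in C4-2BER against 7 in C4-2B. The shares over all protein-coding genes were 74.2% and 73.8%. H3K18ac was at 14 and 15 of the 18, beside 85.2% and 87.2% of all genes. BHLHE22 had H3K27ac of 3.86 in C4-2BER and none in C4-2B, with H3K18ac of 4.89 and 2.93. In the opposite direction, ASCL4 had H3K27ac in C4-2B only, at 3.17, and OLIG3 had H3K18ac in C4-2B only, at 3.09. BHLHA15, a factor of secretory cells, was lower in C4-2BER for H3K27ac (11.6 and 24.5, log2 ratio −1.08), and NEUROD2 for H3K18ac (2.72 and 7.29, −1.43).

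The partners and the listed ID and HES genes were acetylated at every promoter. In C4-2BER 74.2% of all genes had an H3K27ac and 85.2% an H3K18ac promoter peak, and in C4-2B 73.8% and 87.2%. The 3 E proteins, the 7 listed genes of the ID and HES families and the 6 corepressor partners of INSM1 had both marks in C4-2BER as well as in C4-2B. Their median H3K27ac log2 ratios were −0.69, −0.30 and −0.65, beside −0.505 over all genes. The ratios of TCF12 (19.2 and 41.8, −1.12) and RCOR3 (13.9 and 28.0, −1.01) passed a factor of 2. Of 9 known downstream genes, 6 had H3K27ac in C4-2BER compared with 7 in C4-2B, beside 74.2% and 73.8% of all genes. RFX6, a factor of endocrine differentiation, had it in C4-2B only, at 2.66, and NKX2-2 was lower in C4-2BER, with 4.45 and 9.68 (log2 ratio −1.12). DLL3, a Notch ligand of neuroendocrine tumours, had low values in both, at 2.27 and 2.40.

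The cell identity markers were mixed. The luminal prostate genes KLK3, KLK2 and TMPRSS2 had H3K27ac and H3K18ac at their promoters in each cell line. H3K27ac was 13.8 for KLK3 and 20.0 for TMPRSS2 in C4-2BER, beside 20.3 and 21.5 in C4-2B. The log2 ratios were −0.56 and −0.10, against the median of −0.505 over all genes. For H3K18ac they were 0.04 for KLK3, −0.05 for KLK2 and 0.04 for TMPRSS2, against −0.332. Of 4 neuroendocrine genes, ENO2 was higher in C4-2BER for H3K27ac (14.2 and 4.00, log2 ratio 1.83), SYP had 5.67 and 8.16 (−0.53, near the median of −0.505 over all genes), and CHGA and NCAM1 had no H3K27ac promoter peak in either cell line. H3K18ac at CHGA was 2.29 in C4-2BER against 4.31 in C4-2B (log2 ratio −0.91), and the ratio was −0.38 for NCAM1, −0.23 for SYP and 0.09 for ENO2, beside a median of −0.332 over all genes. The part of cell identity in the values of the set was not tested.

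By their promoter values in the 4 lists, the genes most like ASCL2 were MFSD5, B3GNTL1 and ZNF816, at distances of 0.0231, 0.0323 and 0.0455 on the log2 scale. Those most like NEUROG2 were ADAMTS14, BTG4 and HOATZ, with distances of 0.0615, 0.0924 and 0.0924. For ATOH1 they were FXYD4, SULT4A1 and CCDC169, and for NEUROG3 EREG, SVOPL and KLK11. INSM1 was nearest to H2BW1, DEFB1 and FAM186B, and NEUROD1 to KRTAP9-9, ALPG and SMIM43. With 4 values a gene, of which up to 3 were absent, such likeness describes the promoter state and nothing else.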

How the data were processed

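H3K27ac and H3K18ac ChIP-Seq libraries of C4-2B and C4-2BER were analysed from 4 deposited peak lists, 1 per mark and cell line. Per the published methods, the authors mapped the reads to hg38, discarded duplicates, poor alignments and blacklisted regions, combined the replicates and called peaks with macs2, and the deposited lists are in its broad-peak format. The submitters' processing notes name Trimmomatic 0.33 and Bowtie2 2.2.3, and the published methods name another Bowtie2 release. In the deposited lists the authors give a fold enrichment, a ratio to local background, and a −log10 q-value per peak. Read counts were not used here, so the depth of the libraries and the precision it gives are unknown. RNA-seq, ATAC-seq and read-level data were not analysed here, and some genes and sequences of the lists are not reported here.

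Peaks were used as deposited on chromosomes 1 to 22, X and Y, with GENCODE release 44. Peaks of the cell lines sharing a base were joined into regions, whose value was the length-weighted mean fold enrichment. Genes named are the 6 members, neighbours with a described peak, and genes chosen from the pathway lists. Those had a promoter peak in 1 cell line only or a ratio of at least 2, up to 6 a list. The 3 nearest genes of each member by Euclidean distance over log2 promoter values (no peak taken as 0) are also named. Genes of the marker lists were named whether or not they met the rule for the pathway lists. TCF and RCOR genes came in by that rule, while DLL3 was added after their values were seen. The members and lists were chosen with earlier results of these data known, and the printed sequences and the count of repeated words after values were seen. Alternatives were minimum fold and q-value, equal list sizes, locus and promoter widths, overlap, neighbouring promoters and rescaling by a robust line over all shared regions. Joining was tested on simulated data, where 200 of 200 planted regions of each kind were found. Python 3.11.15, pandas 2.3.3, statsmodels 0.14.6, pysam 0.24.0 and samtools 1.23.1 were used.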

Additional observations from a re-analysis of the deposited data

How the results depend on the processing

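The results were recomputed under 10 alternatives, and leaving out a replicate was not possible since each list pools its replicates. No paired analysis was possible because the result comes from no test and the lists are pooled. With a fold enrichment of at least 4, regions in C4-2BER only and C4-2B only numbered 3 and 1 for H3K27ac and 4 and 2 for H3K18ac, and with a minimum −log10 q-value of 5 they numbered 5 and 2, and 11 and 4. For H3K18ac both minimums reversed the order of the unfiltered 22 and 29. Over the genome the shares with the fold minimum were 19.3% and 15.7% for H3K27ac and 19.0% and 23.6% for H3K18ac. With the q-value minimum they were 27.4% and 11.4%, and 34.2% and 12.2%, so the H3K18ac order at the loci was that of the whole lists. Within 50 kb the counts were 2 and 4, and 10 and 19, so for H3K27ac the equal counts of 11 became more in C4-2B. Members with an H3K27ac promoter peak in C4-2BER fell from 2 to 1 with either minimum, NEUROG2 being lost. Members with an H3K18ac promoter peak numbered 1 in each cell line with the fold minimum and 2 in each with the q-value minimum. The median H3K27ac log2 ratio of shared regions was −0.231 with the fold minimum. Rescaling by a robust line over all shared regions turned the H3K18ac median from −0.07 to 0.0527, and turned the promoter ratios of ASCL2 to 0.19 (H3K27ac) and 0.0903 (H3K18ac), of NEUROG2 to 0.0615 and of NEUROG3 to 0.10, with −0.0782 for INSM1 and −0.29 for ATOH1. With promoters of 5000 bp on both sides the INSM1 ratio was 0.00494. The other 59 values kept their sign and moved by less than 1.5 times (counts) or 0.1 (log2). Without read counts, a site without a peak cannot be told from one below the threshold.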
